A study of Mus musculus with 12 samples.

Results

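The genes for moving proteins into the endoplasmic reticulum (ER) and folding them there made up 42 of the 55376 genes in the deposited count table. They were picked by symbol. The set took the Sec61, Sec62 and Sec63 genes of the translocon, Ssr1 to Ssr4, Spcs1 to Spcs3, subunit genes of the signal recognition particle and its receptor, Rpn1, Rpn2, Stt3a, Stt3b, Ddost and Dad1. It also took the Pdia genes, P4hb, Ero1l, the P4ha genes, Calr, Canx and Edem1, and left out pseudogenes named as such. RNA-Seq was done on 4T1 cells, a mouse mammary carcinoma line. Mock cells carried the empty vector, and METTL7A1 cells were stably transfected with the full-length Mettl7a1 cDNA under a CMV promoter. Whether each line was 1 clone or a pool of transfected cells was not stated. All cells were held with cycloheximide at 0.1 mg/ml for 5 min, washed with it at 0.01 mg/ml, lysed in detergent and run on sucrose gradients. Fractions 3 to 7, with free subunits and monosomes, gave the sub-polysomal RNA of each line. Fractions 8 to 11, with light and heavy polysomes, gave the polysomal RNA. Each of the 4 groups had 3 libraries, lettered A, B and C in mock cells and D, E and F in METTL7A1 cells. The 12 libraries held between 1817520 counts (mock sub-polysomal A) and 6966156 counts (mock polysomal C). A single count equalled 0.564 CPM (counts relative to the scaled library size) in the shallowest library and 0.124 CPM in the deepest.

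The labels were checked against the counts. Mettl7a1 averaged 2.41 CPM in mock sub-polysomal and 3.05 CPM in mock polysomal libraries, against 305 and 298 CPM in the same pools of METTL7A1 cells. Its log2 change was 6.60 ± 0.24 (SE, edgeR adjusted p = 5.44e-13) in polysomal RNA and 6.93 ± 0.27 (SE, edgeR adjusted p = 4.51e-12) in sub-polysomal RNA. All 6 epithelial carcinoma markers (Epcam, Krt8, Krt18, Krt19, Cdh1 and Cldn7) were counted in every group, with Krt18 the most abundant. Their summed level per library was 2282 to 2313 CPM and 2736 to 3222 CPM in the mock sub-polysomal and polysomal groups. In METTL7A1 cells it was 2269 to 2950 CPM and 4224 to 4803 CPM, so it moved with the group. Nuclear non-coding RNAs, mostly Neat1, also did: they summed to 27.6 to 52.0 CPM in mock and 57.8 to 75.2 CPM in METTL7A1 polysomal libraries, and to means of 134 and 223 CPM in the sub-polysomal groups. The part of either in the results on the ER genes was not tested. Of 6 fibroblast markers, 4 were at 0 in each group, the sum reached at most 6.01 CPM and was nearly all Pdgfra. The macrophage marker Cd68 had group means from 6.54 CPM (mock polysomal) to 19.3 CPM (METTL7A1 polysomal), and Lyz2, Adgre1 and Cd3e were at 0 in all groups. The 4 endothelial markers summed to at most 0.959 CPM in a library. Summed mitochondrial transcripts (mt-Nd1, mt-Co1 and mt-Cytb) marked the pools: 63250 ± 9302 CPM (SD, n = 3) in mock sub-polysomal against 8854 ± 4621 CPM in mock polysomal RNA, and 55180 ± 16320 against 7742 ± 1195 CPM in METTL7A1 cells.

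Secretory and membrane proteins are led to the ER while their mRNAs are translated: the signal recognition particle binds the emerging signal sequence, docks on its receptor, and the ribosome is passed to the Sec61 channel. Signal peptidase then removes the signal, oligosaccharyltransferase attaches N-glycans, and lectins, disulfide isomerases and prolyl hydroxylases fold the chain in the lumen. Mammary carcinoma cells export matrix and surface proteins through this route, and the unfolded protein response raises many of its genes when folding falls behind.

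Of the 42 members, 39 passed the filter of 1 CPM in 3 libraries and were tested among 12224 genes. Srp54a (at most 1 count in a library), Srp54b (0 counts in every library) and Pdia2, a pancreatic disulfide isomerase (at most 3 counts), did not pass. Per kilobase of exon, the highest mean levels over all libraries were those of Ssr4 (665 CPM per kb), Calr (599), P4hb (472), Pdia3 (439), Ssr2 (428) and Sec61b (422), and the lowest of the tested members was P4ha3 (0.741 CPM per kb). Pools were compared as polysomal against sub-polysomal RNA within a line, and lines as METTL7A1 against mock cells within a pool. The 4 comparisons share groups, so they are not independent of each other. Values in a pool are shares of its counted RNA, and a change in total RNA is not seen. More cells with an mRNA and more of it per cell cannot be told apart in such extracts. Adjusted p-values judge a difference against the spread between libraries, estimated over all 4 groups together. The labels do not state whether the 3 libraries of a group came from separate cultures. The authors described the gradient profiles of these lines as repeated on biological replicates.

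The question in mock cells was which of these mRNAs sat more in polysomes than in lighter fractions. At an edgeR adjusted p below 0.05, 7 of the 39 tested members were higher in polysomal RNA (17.9%, beside 23.3% of all tested genes) and 9 were lower (23.1%, beside 23.7%), shares near the background. The member median was 0.09 log2, beside 0.05 over all tested genes. Higher were Srp54c, Sec61a1, Ero1l, Stt3a, Pdia6, Srpr and Ssr1, and lower were Sec61g, Sec61b, Srp19, Srp9, Srp14, Spcs1, Ssr4, Dad1 and Spcs2, mostly small subunits. The Ssr1 call held without mock sub-polysomal A or C, mock polysomal C or METTL7A1 sub-polysomal D, and ended without any of the 8 other libraries (edgeR adjusted p from 0.0514 to 0.243). It also ended with DESeq2 (adjusted p = 0.0543). In edgeR it ended with RLE factors, Actb scaling, a minimum of 10 counts in every library and a fit of only the groups compared (adjusted p = 0.0716, 0.238, 0.0603 and 0.105). In METTL7A1 cells 23 members were higher in polysomal RNA (59%, beside 30% of all genes) and 10 were lower (25.6%, beside 29.3%). There the member median was 0.54, beside 0.06 over all genes. All 7 members higher in mock cells and all 9 lower there were called the same way in METTL7A1 cells, 16 others were called higher in METTL7A1 cells only, and Ssr2 lower; the difference between the lines is tested further on.

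Both splits depended on the scaling. With library totals alone, and with factors computed within each pool, the median of all genes in mock cells moved from 0.05 to 0.45 and 0.48 log2, and the called genes from 49.6% higher to 75.9% and 77.1%. Members then numbered 21 higher and 5 lower (80.8% of those called, beside 43.8% in the reported scaling), and 24 and 5 (82.8%). Scaling to equal Actb left 3 higher and 9 lower (25%), with 41.9% of all called genes higher and an all-gene median of -0.02. Without mock sub-polysomal B, 4 members were higher, as all genes higher went from 2850 to 2293. With each library left out in turn, 12 of the 16 calls in mock pools and 26 of the 33 in METTL7A1 pools held. Relative to the all-gene median, the member median in mock cells stood 0.03 higher in the reported scaling, 0.01 higher with library totals and 0.03 higher with factors within each pool. For METTL7A1 cells the same settings moved the all-gene median from 0.06 to 0.53 and 0.49, and Actb scaling moved it to -0.18. The called genes went from 50.6% higher to 72.9%, 71.7% and 33.6%, and the members from 69.7% to 80% (28 and 7), 77.8% (28 and 8) and 54.2% (13 and 11). Under every scaling tried the member median in METTL7A1 cells lay between 0.47 and 0.48 above that of all genes.

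By the stricter limits of adjusted p below 0.01 and a log2 change beyond 1.5, Sec61b, Sec61g and Srp19 were the members lower in polysomes. They made 3 of 39 in mock cells (6.86% of all genes) with 0 higher (0.687% of all genes), and 3 of 39 in METTL7A1 cells (10.3% of all genes) with 1 higher, Srp54c (1.76% of all genes).

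Lines were compared to ask which mRNAs differed with METTL7A1 in each pool. In polysomal RNA 15 of 39 members were higher in METTL7A1 cells (38.5%, beside 9.69% of all tested genes) and 1 was lower (2.56%, beside 8.28%), with a member median of 0.44 beside -0.01. The 15 were Pdia3, Calr, Pdia4, Sec61a2, Pdia5, Ssr4, P4ha1, P4hb, Rpn2, Rpn1, Ssr2, Sec61a1, Srpr, Spcs3 and Spcs2, and the lower member was Srp54c. All 3 METTL7A1 libraries lay above all 3 mock libraries for 25 members (18.9% of all genes did so) and below for 2 (17.7% of all genes). Sub-polysomal RNA split evenly: 6 members were higher (15.4%, beside 16.8% of all genes) and 6 were lower (15.4%, beside 14.5%), around a median of 0.06 beside -0.002 for all genes. The higher 6 were Ssr4, Ssr2, Dad1, Sec61a1, Srprb and Sec61a2. The lower 6 were Srp54c, P4ha2, Sec63, Sec62, Ero1l and Pdia6. There 10 members lay fully above (23.5% of all genes) and 6 fully below (20.5% of all genes).

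Some libraries mattered more than others to the counts. Without mock polysomal B, METTL7A1 polysomal D or METTL7A1 polysomal E, 5, 5 and 6 members were higher in polysomal RNA, as all genes higher went from 1185 to 772, 781 and 780. The member median in these fits was 0.39, 0.35 and 0.45, beside 0.44 with all libraries. Srp54c was no longer lower without mock polysomal A or METTL7A1 polysomal D or E (edgeR adjusted p from 0.0641 to 0.106). Of the 16 calls, 5 held without each library in turn, those of Pdia3, Calr, Pdia4, Sec61a2 and Pdia5. METTL7A1 polysomal D was the highest library of its group for 28 of the 39 members, and METTL7A1 sub-polysomal D for 23 of 39. In the mock groups, sub-polysomal A was the highest for 22 and polysomal C for 21. In sub-polysomal RNA 2 members were higher without METTL7A1 sub-polysomal D and 3 without E, as all genes higher went from 2058 to 1587 and 1595. There 7 of 12 calls held without each library. Library totals alone gave 6 higher and 1 lower in polysomal RNA, with 38.5% of all called genes higher in place of 53.9%. Actb scaling gave 12 and 0, with 71.4% of all called genes higher. For sub-polysomal RNA those scalings moved the median of all genes from -0.002 to -0.16 and 0.26, the called genes from 53.7% higher to 35.2% and 83.1%, and the members to 2 higher and 8 lower, and 10 and 3. Relative to all genes, the member median stayed 0.45 higher in polysomal RNA and 0.07 higher in sub-polysomal RNA under both scalings.

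**Figure D1:**
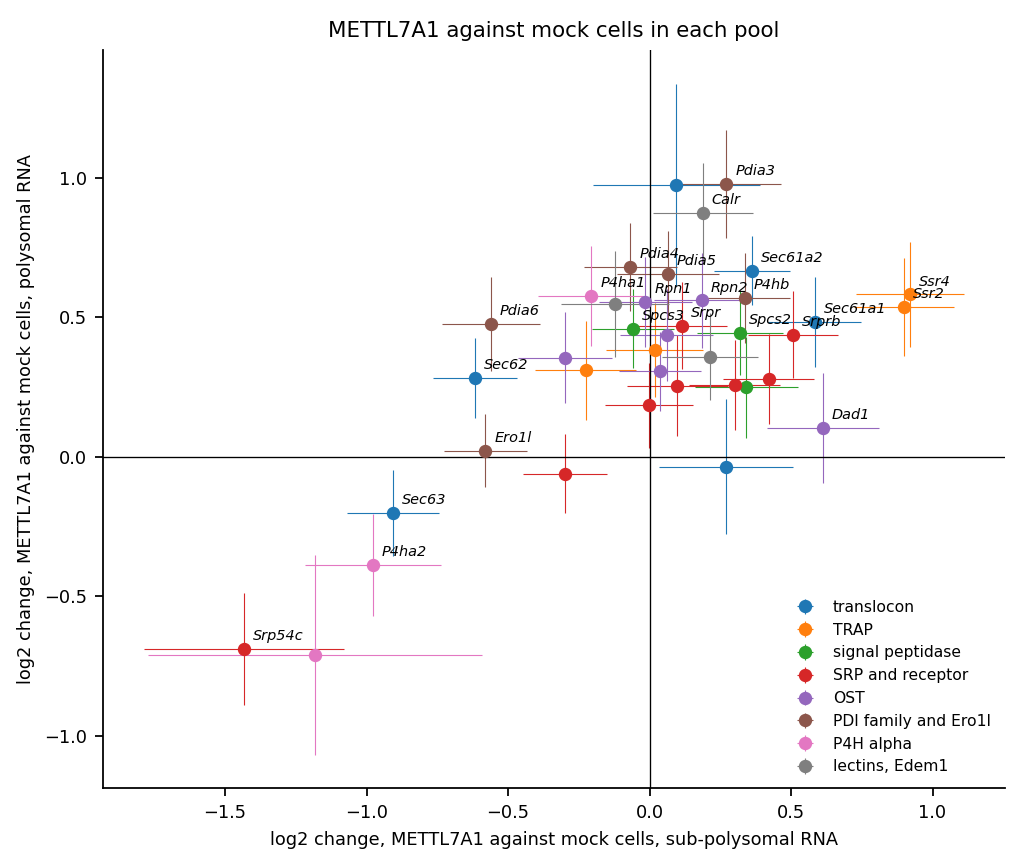
Log2 change of METTL7A1 against mock cells for the 39 tested members, in sub-polysomal RNA (horizontal axis) and in polysomal RNA (vertical axis), coloured by role, with bars of 1 SE. Most members lie above 0 on the vertical axis, where the median was 0.44, while on the horizontal axis the median was 0.06.

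The translocon members are the channel subunits Sec61a1, Sec61a2, Sec61b and Sec61g and their partners Sec62 and Sec63. The shortest of them differed most between pools. Sec61b, the tail-anchored beta subunit, stood at 340.3, 458 and 306 CPM in mock sub-polysomal libraries A, B and C and at 35.9, 84.0 and 90.8 CPM in their polysomal counterparts. In METTL7A1 libraries D, E and F it stood at 425, 462 and 446 CPM in sub-polysomal and 58.9, 73.7 and 73.1 CPM in polysomal RNA. The pools did not overlap in either line, and the log2 change was -2.39 ± 0.25 (SE, edgeR adjusted p = 1e-06) in mock and -2.70 ± 0.25 (SE, edgeR adjusted p = 1.2e-07) in METTL7A1 cells. Sec61g, the gamma subunit, had far lower counted levels, at 7.34, 8.50 and 7.70 CPM in mock sub-polysomal and 0.956, 1.37 and 1.86 CPM in mock polysomal RNA. Its METTL7A1 values were 9.95, 5.96 and 9.56 CPM and 2.06, 2.31 and 4.21 CPM. Again each polysomal library lay below each sub-polysomal library of its line, with log2 changes of -2.47 ± 0.34 (SE, edgeR adjusted p = 1.69e-05) and -1.59 ± 0.31 (SE, edgeR adjusted p = 0.000222). Of the 50-base windows in the Sec61g transcript, 77.6% also occur in other genes, beside 41% for Sec61b. How such reads were counted was not stated, so low abundance of Sec61g and uncounted reads cannot be told apart. The full coding sequences of Sec61b (chr4:47474751-47483062, plus strand, introns removed) and Sec61g (chr11:16501798-16506466, minus strand) in GRCm38 are shown because these 2 open reading frames of 291 and 207 bases, for 96 and 68 residues, carried the largest drops, with start and stop codons in capitals.
Sec61b: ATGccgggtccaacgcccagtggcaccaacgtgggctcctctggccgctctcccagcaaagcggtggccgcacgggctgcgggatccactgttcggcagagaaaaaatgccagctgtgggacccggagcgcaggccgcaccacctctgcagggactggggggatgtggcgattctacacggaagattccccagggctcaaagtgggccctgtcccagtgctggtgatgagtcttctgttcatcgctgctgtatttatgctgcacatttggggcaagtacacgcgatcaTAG
Sec61g: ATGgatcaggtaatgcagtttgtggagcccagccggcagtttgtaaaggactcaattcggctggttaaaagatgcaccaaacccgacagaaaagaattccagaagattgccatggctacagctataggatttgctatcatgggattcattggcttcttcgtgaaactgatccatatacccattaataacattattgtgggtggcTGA

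The alpha subunit forms the pore itself. Sec61a1 measured 224, 268 and 247 CPM in mock sub-polysomal and 429.9, 321 and 424 CPM in mock polysomal RNA. It measured 438, 340.4 and 329.7 CPM and 604, 556 and 483 CPM in the METTL7A1 pools. METTL7A1 libraries lay above mock libraries in each pool, and polysomal above sub-polysomal libraries in each line. The pool change was 0.67 ± 0.16 (SE, edgeR adjusted p = 0.00264) in mock cells. Between lines Sec61a1 changed by 0.58 ± 0.16 (SE, edgeR adjusted p = 0.0114) in sub-polysomal RNA, a call that ended without METTL7A1 sub-polysomal D (edgeR adjusted p = 0.0682) and with library totals alone (edgeR adjusted p = 0.0542). Its paralogue Sec61a2 stood at 47.4, 48.5 and 55.5 CPM and 62.1, 64.0 and 63.5 CPM in the mock pools, and at 70.3, 63.8 and 62.2 CPM and 111, 96.6 and 93.7 CPM in the METTL7A1 pools. METTL7A1 libraries again lay above mock libraries in both pools. The change between lines was 0.67 ± 0.13 (SE, edgeR adjusted p = 0.00103) in polysomal RNA. In sub-polysomal RNA it was 0.36 ± 0.14 (SE, edgeR adjusted p = 0.0478), which held without mock sub-polysomal C and without mock polysomal A and ended without any of the 10 other libraries (edgeR adjusted p from 0.0531 to 0.133).

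Sec62 and Sec63 help chains through the channel after or early in synthesis, and both were lower with METTL7A1 in the light fractions. Sec63 read 175, 131 and 198 CPM in mock and 91.8, 91.3 and 86.3 CPM in METTL7A1 sub-polysomal RNA. Its polysomal values were 189.8, 186 and 199 CPM and 200.1, 150.1 and 149.7 CPM. The lines overlapped in polysomes but not in sub-polysomal RNA, where the change was -0.91 ± 0.16 (SE, edgeR adjusted p = 0.00039). For Sec62 the sub-polysomal values were 135, 99.8 and 132 CPM in mock and 75.3, 79.9 and 83.5 CPM in METTL7A1 cells. In polysomes Sec62 read 120, 134 and 117 CPM and 174, 143 and 134 CPM. All METTL7A1 libraries lay below all mock libraries in the first pool and above them in the other, with changes of -0.62 ± 0.15 (SE, edgeR adjusted p = 0.00425) and 0.28 ± 0.14 (SE, edgeR adjusted p = 0.183). The polysomal difference did not pass the test, and the sub-polysomal call ended with Actb scaling (edgeR adjusted p = 0.136). Of the 6 translocon members, 4 were higher and 2 lower in polysomes of METTL7A1 cells (30% and 29.3% of all genes), beside 1 and 2 in mock cells (23.3% and 23.7%). Actb scaling ended the METTL7A1 calls of Sec61a1 and Sec61a2 (edgeR adjusted p = 0.141 and 0.0556).

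The translocon-associated (TRAP) complex, Ssr1 to Ssr4, sits beside the channel and helps some signal sequences insert. Ssr4, the delta subunit, had 459, 506 and 479 CPM in mock sub-polysomal and 232, 287 and 372 CPM in mock polysomal RNA. METTL7A1 libraries had 1159, 871 and 704 CPM and 464, 400.5 and 470.1 CPM. METTL7A1 libraries thus lay above mock libraries in both pools, and polysomal below sub-polysomal libraries, except that METTL7A1 polysomal values reached those of mock sub-polysomal RNA. Between lines Ssr4 changed by 0.92 ± 0.19 (SE, edgeR adjusted p = 0.00135) in sub-polysomal and 0.58 ± 0.19 (SE, edgeR adjusted p = 0.039) in polysomal RNA. The polysomal call ended without mock polysomal A or B, METTL7A1 sub-polysomal E, or METTL7A1 polysomal D, E or F (edgeR adjusted p from 0.0549 to 0.119), with library totals alone (edgeR adjusted p = 0.0644) and with Actb scaling (edgeR adjusted p = 0.0545). Between the METTL7A1 pools Ssr4 changed by -1.03 ± 0.19 (SE, edgeR adjusted p = 0.00014). Its mock pool call ended with library totals (edgeR adjusted p = 0.15) and with factors within each pool (edgeR adjusted p = 0.196). Ssr2, the beta subunit, showed the same order of lines at 381, 421 and 473 CPM in mock and 1020, 745 and 614 CPM in METTL7A1 sub-polysomal RNA. Its polysomal values were 366, 399.7 and 453 CPM and 625, 548 and 596 CPM. The lines did not overlap in either pool, and the sub-polysomal change was 0.90 ± 0.18 (SE, edgeR adjusted p = 0.000895). Between the METTL7A1 pools Ssr2 was lower by the test, but its libraries overlapped. Its log2 change of -0.43 turned to 0.04 with library totals and 0.01 with factors within each pool. The call also ended with no filter on low counts (edgeR adjusted p = 0.0611). It ended without mock polysomal B, METTL7A1 sub-polysomal D or E, or METTL7A1 polysomal D, E or F (edgeR adjusted p from 0.0505 to 0.31). Without METTL7A1 sub-polysomal D the change was -0.20. Ssr1 and Ssr3 passed no test between lines.

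Signal peptidase removes the signal sequence, and Spcs1, Spcs2 and Spcs3 are its small accessory subunits. Spcs1 read 478, 384 and 448 CPM in mock sub-polysomal against 181, 282 and 299 CPM in mock polysomal RNA. The METTL7A1 pools read 506, 669 and 484 CPM and 307, 288 and 309.6 CPM. No polysomal library reached a sub-polysomal library of its line, and the mock change was -0.78 ± 0.18 (SE, edgeR adjusted p = 0.00177). That call ended with library totals (edgeR adjusted p = 0.0612) and with factors within each pool (edgeR adjusted p = 0.0828). Spcs2 was also lower in the polysomes of both lines, with a log2 change of -0.56 in mock and -0.44 in METTL7A1 cells. In mock cells the call ended with library totals (edgeR adjusted p = 0.336) and with factors within each pool (edgeR adjusted p = 0.422). In METTL7A1 cells the change turned to 0.03 with library totals, and the call ended with factors within each pool (edgeR adjusted p = 0.99) and without METTL7A1 sub-polysomal E or METTL7A1 polysomal E (edgeR adjusted p from 0.0699 to 0.0815). Spcs3, named here after its values were seen, read 196, 148 and 210.4 CPM and 173, 179.5 and 163 CPM in the mock pools. Its METTL7A1 pools read 185, 177 and 169.5 CPM and 258, 221 and 229.9 CPM. The pools of Spcs3 overlapped in mock cells and not in METTL7A1 cells. Its pool change was -0.10 ± 0.14 (SE, edgeR adjusted p = 0.573) in mock cells and 0.41 ± 0.14 (SE, edgeR adjusted p = 0.0181) in METTL7A1 cells. The METTL7A1 call for Spcs3 ended without METTL7A1 sub-polysomal E or F or METTL7A1 polysomal D (edgeR adjusted p from 0.0508 to 0.0822) and with Actb scaling (edgeR adjusted p = 0.453). Between lines Spcs2 and Spcs3 were higher in METTL7A1 polysomes, though the Spcs2 call held only without mock sub-polysomal A or B and ended without each of the 10 other libraries (edgeR adjusted p from 0.0519 to 0.162). The Spcs3 call ended without mock polysomal B or C or METTL7A1 polysomal D, E or F (edgeR adjusted p from 0.057 to 0.133). In sub-polysomal RNA no signal peptidase member passed, and the smallest edgeR adjusted p was 0.119.

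Srp9, Srp14, Srp19, Srp54, Srp68 and Srp72 are the proteins of the signal recognition particle. Srp9 and Srp14 bind its Alu domain and slow elongation, and Srp19 helps the particle assemble. For Srp14 the mock pools gave 265, 263 and 255 CPM and 106, 158 and 157 CPM, sub-polysomal first. The METTL7A1 pools gave 266, 343 and 355 CPM and 157, 168 and 179 CPM. Every polysomal value of Srp14 was lower than every sub-polysomal value, and its log2 change was -0.89 ± 0.16 (SE, edgeR adjusted p = 0.000207) in mock cells. Srp9 fell in the same way from 140, 148 and 145 CPM to 46.4, 75.3 and 69.7 CPM in mock cells. In METTL7A1 cells Srp9 went from 192, 187 and 201 CPM to 67.7, 75.0 and 90.1 CPM. The Srp9 pools did not overlap, and changed by -1.18 ± 0.16 (SE, edgeR adjusted p = 1.57e-05) and -1.32 ± 0.16 (SE, edgeR adjusted p = 1.88e-06). Srp19 had the largest drop among the particle genes tested, at 194, 183 and 179 CPM against 41.2, 70.0 and 62.8 CPM in mock cells. Its METTL7A1 values were 148, 216 and 229 CPM against 67.3, 66.9 and 73.6 CPM. The Srp19 pools were separate in both lines, with changes of -1.67 ± 0.18 (SE, edgeR adjusted p = 1.68e-06) and -1.52 ± 0.18 (SE, edgeR adjusted p = 1.51e-06).

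Srp54, the subunit that reads the signal sequence, is annotated as 3 genes in the mouse, of which Srp54c alone was tested. It had 5.64, 4.41 and 5.33 CPM in mock sub-polysomal and 14.5, 10.6 and 11.4 CPM in mock polysomal RNA. METTL7A1 cells had 1.99, 0.993 and 2.63 CPM and 6.71, 7.83 and 8.09 CPM. Polysomal libraries lay above sub-polysomal ones in each line, by 1.25 ± 0.24 (SE, edgeR adjusted p = 0.000383) and 2.00 ± 0.30 (SE, edgeR adjusted p = 1.99e-05), and METTL7A1 below mock libraries in each pool. The difference between lines was -1.43 ± 0.35 (SE, edgeR adjusted p = 0.00483) in sub-polysomal RNA and -0.69 ± 0.20 (SE, edgeR adjusted p = 0.0215) in polysomal RNA. The polysomal call ended without mock polysomal A or METTL7A1 polysomal D or E (edgeR adjusted p from 0.0641 to 0.106) and with Actb scaling (edgeR adjusted p = 0.067). Of the 50-base windows in the Srp54c transcript, 90.3% also occur in other genes, most often in Srp54a and Srp54b, so reads from the 3 copies cannot be told apart by such windows, and the counting rule for them was not stated. The same holds in part for Sec61g (77.6%), Sec61b (41%), Sec61a2 (35.9%), Srprb (27.8%), Srpr (20%), Srp9 (15.5%), Sec61a1 (14.6%) and Sec62 (11.8%). All other tested members shared at most 5.11% of their windows.

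The receptor holds the particle at the ER membrane, with Srpr on the cytosolic side anchored by Srprb. Srpr counted 322, 284 and 316 CPM in mock sub-polysomal and 431, 369 and 454 CPM in mock polysomal RNA. Its METTL7A1 pools counted 398, 319 and 282 CPM and 642, 567 and 529 CPM. Polysomal libraries were the higher ones in both lines, in mock cells by 0.44 ± 0.16 (SE, edgeR adjusted p = 0.0258). The mock call ended without mock sub-polysomal B or C or mock polysomal C (edgeR adjusted p from 0.0522 to 0.0923), with Actb scaling (edgeR adjusted p = 0.158) and in a fit of only the groups compared (edgeR adjusted p = 0.0543). Srprb counted 113, 138 and 124 CPM in mock and 218, 176 and 141 CPM in METTL7A1 sub-polysomal RNA. Polysomal RNA had 99.5, 92.5 and 119.8 CPM and 149, 133 and 140 CPM. METTL7A1 libraries were above mock libraries in both pools, and the test passed in sub-polysomal RNA, at 0.51 ± 0.16 (SE, edgeR adjusted p = 0.0215). It did not pass without mock sub-polysomal A or C or METTL7A1 sub-polysomal D or E (edgeR adjusted p from 0.0527 to 0.129), nor with library totals (edgeR adjusted p = 0.0975). Of the 8 tested members of particle and receptor, 2 were higher and 3 lower in mock polysomes (23.3% and 23.7% of all genes), and 3 and 3 in METTL7A1 polysomes (30% and 29.3%). The third higher call, of Srp72, ended without METTL7A1 sub-polysomal D or METTL7A1 polysomal E (edgeR adjusted p from 0.0597 to 0.0841) and with Actb scaling (edgeR adjusted p = 0.333).

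Oligosaccharyltransferase puts N-glycans on entering chains, with Stt3a and Stt3b as its catalytic subunits and Rpn1, Rpn2, Ddost and Dad1 as partners. Stt3a had 523, 378 and 486 CPM in mock sub-polysomal and 812, 624 and 641 CPM in mock polysomal RNA. METTL7A1 cells had 341, 402 and 383 CPM and 987, 856 and 814 CPM. Polysomal libraries stood apart above the others in each line, by 0.58 ± 0.16 (SE, edgeR adjusted p = 0.00701) and 1.24 ± 0.17 (SE, edgeR adjusted p = 4.99e-06). The mock call for Stt3a ended with Actb scaling (edgeR adjusted p = 0.0603). Dad1, a small subunit, ran against it, from 301, 403 and 346 CPM to 152, 229 and 301 CPM across the mock pools. In METTL7A1 cells Dad1 went from 593, 566 and 448 CPM to 257, 237 and 239 CPM. Between pools Dad1 changed by -1.13 ± 0.20 (SE, edgeR adjusted p = 8.61e-05) in METTL7A1 cells, and between lines by 0.61 ± 0.20 (SE, edgeR adjusted p = 0.0245) in sub-polysomal RNA. The difference between lines was lost without mock sub-polysomal A or C or METTL7A1 sub-polysomal D or E (edgeR adjusted p from 0.0627 to 0.099) and with library totals (edgeR adjusted p = 0.0693). Rpn1 had 342, 343 and 349.8 CPM and 463, 378 and 439 CPM in the mock pools. It had 416, 331 and 279 CPM and 724, 608 and 549 CPM in the METTL7A1 pools. The highest 3 of those 12 values were the METTL7A1 polysomal libraries. In total 4 of the 6 members were higher and Dad1 was lower in METTL7A1 polysomes (30% and 29.3% of all genes), while in mock polysomes Stt3a was higher and Dad1 lower (23.3% and 23.7%). The mock Dad1 call ended without mock sub-polysomal B or mock polysomal A (edgeR adjusted p from 0.0646 to 0.0715), with library totals (edgeR adjusted p = 0.283) and with factors within each pool (edgeR adjusted p = 0.36). Of the 4 higher calls, Actb scaling ended those of Ddost and Stt3b (edgeR adjusted p = 0.367 and 0.504). Ddost also missed without METTL7A1 sub-polysomal E or F or METTL7A1 polysomal D (edgeR adjusted p from 0.0613 to 0.101). Stt3b missed with RLE factors (edgeR adjusted p = 0.0543) and without METTL7A1 sub-polysomal D or E or METTL7A1 polysomal D or E (edgeR adjusted p from 0.0507 to 0.149).

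Disulfide isomerases form and rearrange disulfide bonds, and Ero1l reoxidises them. All 6 tested members were higher in polysomal than in sub-polysomal RNA of METTL7A1 cells, beside 2 of 6 in mock cells (30% and 23.3% of all genes). With Actb scaling the METTL7A1 calls of Pdia3, P4hb and Pdia5 ended (edgeR adjusted p = 0.0594, 0.139 and 0.211), and that of Pdia5 also without METTL7A1 sub-polysomal F (edgeR adjusted p = 0.0598). P4hb, the founding isomerase and the beta subunit of prolyl 4-hydroxylase, stood at 1033, 923 and 1022 CPM in mock sub-polysomal and 1328, 1134 and 1355 CPM in mock polysomal RNA. It stood at 1405, 1203 and 1151 CPM and 2162, 1796 and 1707 CPM in METTL7A1 cells. METTL7A1 libraries lay above mock libraries in both pools. Pdia3, which works with the lectin chaperones on glycoproteins, gave 1166, 724 and 834 CPM and 963, 866 and 1063 CPM in the mock pools. METTL7A1 cells gave 1286, 1064 and 935 CPM and 2256, 1745 and 1694 CPM. Only the METTL7A1 polysomal libraries stood apart from the other 3 groups, by 0.98 ± 0.19 (SE, edgeR adjusted p = 0.00172) from mock polysomal RNA.

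Pdia4, an isomerase with several thioredoxin domains, read 129, 111 and 129.9 CPM and 158, 134 and 159.8 CPM in the mock pools. Its METTL7A1 values were 142, 114 and 97.8 CPM and 281, 242 and 201 CPM. Each METTL7A1 polysomal library exceeded all 9 others, and Pdia4 changed by 1.04 ± 0.16 (SE, edgeR adjusted p = 2.44e-05) between METTL7A1 pools and by 0.68 ± 0.16 (SE, edgeR adjusted p = 0.00539) between lines in polysomes. Pdia5 was at 24.8, 23.3 and 22.1 CPM and 21.4, 20.8 and 24.9 CPM in mock pools. It was at 27.9, 25.6 and 19.9 CPM and 39.7, 37.6 and 28.1 CPM in METTL7A1 pools. Here too the METTL7A1 polysomal libraries were the highest of the 12, by 0.65 ± 0.16 (SE, edgeR adjusted p = 0.00635) over mock polysomes.

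Pdia6, an isomerase tied to the chaperone BiP, had 393, 328 and 310.1 CPM in mock sub-polysomal and 487, 409.5 and 518 CPM in mock polysomal RNA. METTL7A1 cells had 272, 236 and 189.6 CPM and 767, 643 and 559.9 CPM. METTL7A1 libraries were the lowest in sub-polysomal RNA and the highest in polysomal RNA, with no overlap in either pool. The pool changes were 0.46 ± 0.17 (SE, edgeR adjusted p = 0.0335) in mock cells and 1.497 ± 0.17 (SE, edgeR adjusted p = 1.03e-06) in METTL7A1 cells. In sub-polysomal RNA Pdia6 changed by -0.56 ± 0.17 (SE, edgeR adjusted p = 0.0187) between lines, and in polysomal RNA by 0.48 ± 0.17 (SE, edgeR adjusted p = 0.057), which did not pass. The mock pool call ended without mock sub-polysomal B or C or mock polysomal A or C (edgeR adjusted p from 0.0605 to 0.123), in a fit of only the groups compared (edgeR adjusted p = 0.0584) and with Actb scaling (edgeR adjusted p = 0.169). The sub-polysomal call ended without mock sub-polysomal A or METTL7A1 sub-polysomal E or F (edgeR adjusted p from 0.0529 to 0.0867) and with Actb scaling (edgeR adjusted p = 0.279).

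Ero1l, the oxidase, was at 52.5, 45.0 and 48.6 CPM and 78.7, 67.8 and 73.5 CPM in the mock pools. METTL7A1 sub-polysomal libraries were at 36.1, 31.8 and 29.6 CPM, below all mock ones, and METTL7A1 polysomal libraries at 80.5, 67.2 and 75.6 CPM, overlapping the mock ones. Its pools differed by 0.60 ± 0.14 (SE, edgeR adjusted p = 0.00167) and 1.20 ± 0.14 (SE, edgeR adjusted p = 1.15e-06), and the sub-polysomal lines by -0.58 ± 0.15 (SE, edgeR adjusted p = 0.0058). Actb scaling ended the difference between lines (edgeR adjusted p = 0.195). The alpha subunits of collagen prolyl 4-hydroxylase, P4ha1 to P4ha3, pair with P4hb. P4ha1 read 92.0, 74.6 and 68.5 CPM and 76.1, 67.3 and 87.6 CPM in mock pools. In METTL7A1 pools P4ha1 read 88.2, 56.3 and 58.3 CPM and 137, 113 and 94.7 CPM. METTL7A1 polysomal libraries were the highest group, clear of the rest. P4ha2 was scarcer, at 22.6, 16.7 and 16.6 CPM and 25.8, 18.97 and 27.9 CPM in mock pools. Its METTL7A1 values were 8.62, 11.2 and 7.65 CPM and 21.2, 19.9 and 14.2 CPM. METTL7A1 sub-polysomal libraries lay below all others, with a change of -0.98 ± 0.24 (SE, edgeR adjusted p = 0.00458) against mock cells and a pool change of 1.01 ± 0.22 (SE, edgeR adjusted p = 0.000691). P4ha3 (0.496 to 3.39 CPM) passed no test.

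Calr and Canx are the lectin chaperones that hold glycoproteins while they fold, and Edem1 helps pass misfolded ones on to degradation. Calr, the soluble lectin, had 1271, 934 and 908 CPM in mock sub-polysomal and 1034, 951 and 1211 CPM in mock polysomal RNA. METTL7A1 cells had 1320, 1131 and 1093 CPM and 2211, 1976 and 1667 CPM. The METTL7A1 polysomal libraries lay above all 9 others, which overlapped, and the change between lines in polysomes was 0.87 ± 0.18 (SE, edgeR adjusted p = 0.00213). Canx, the membrane-bound lectin, had 621, 406 and 554 CPM and 767, 614 and 574 CPM in the mock pools. METTL7A1 pools had 376, 507 and 567 CPM and 1104, 878 and 876 CPM. All 3 METTL7A1 polysomal libraries were above the mock polysomal ones, yet the test between lines did not pass (log2 change 0.55 ± 0.19 SE, edgeR adjusted p = 0.0529). Edem1 counted 57.0, 58.9 and 38.5 CPM and 59.8, 52.0 and 62.7 CPM in the mock pools. In the METTL7A1 pools Edem1 counted 63.3, 54.1 and 59.3 CPM and 82.9, 65.5 and 75.5 CPM. Edem1 passed none of the 4 comparisons, though its METTL7A1 polysomal libraries also lay above mock polysomal ones.

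**Figure D2:**
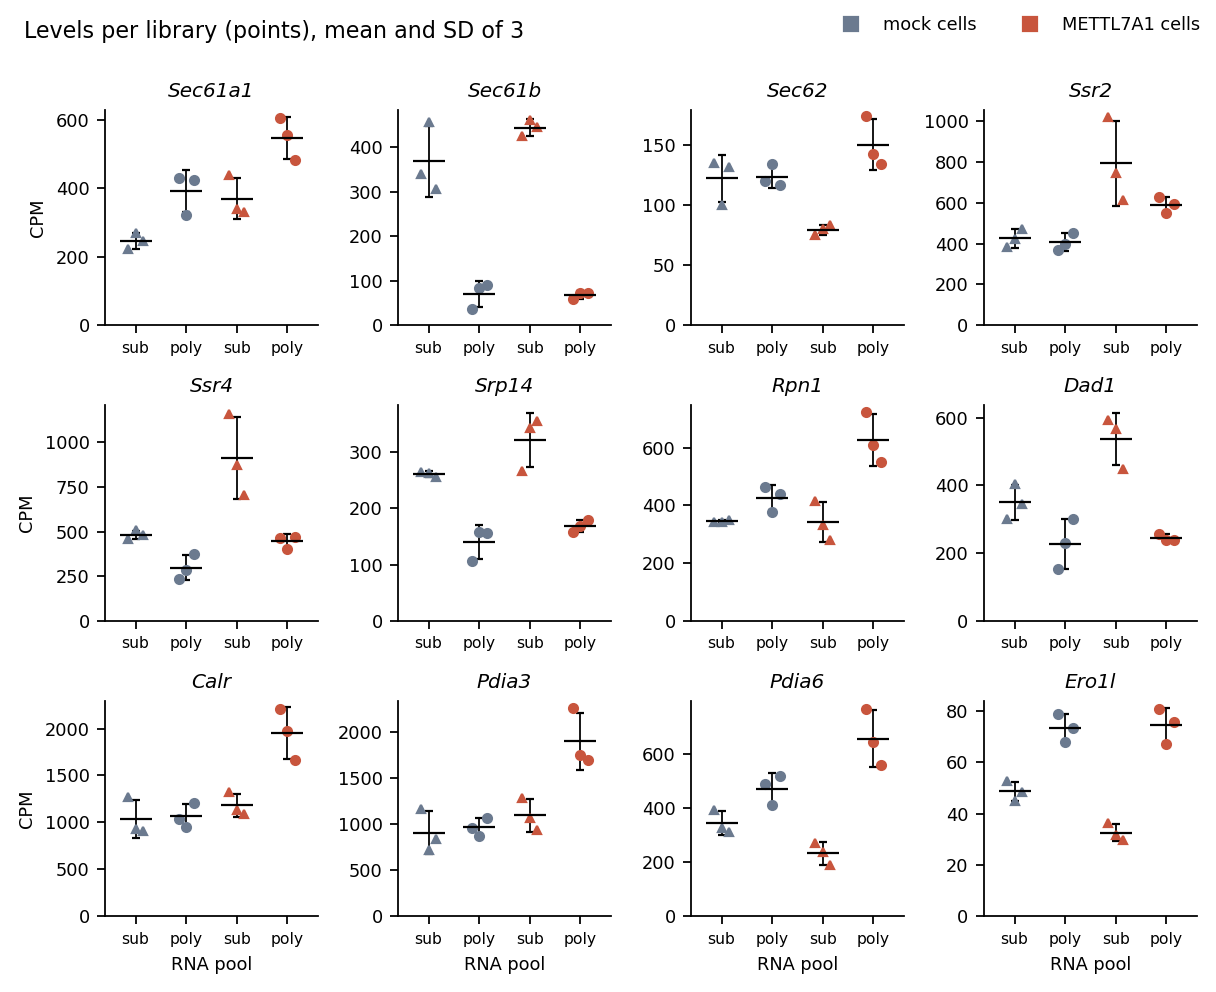
Level in every library (CPM, axes from 0) of 12 members in the sub-polysomal (sub) and polysomal (poly) pools of each line, with mean and SD of 3 libraries. For Calr, Pdia3 and Pdia6 the METTL7A1 polysomal points lie above those of the other 3 groups, while for Sec61b both polysomal groups lie below both sub-polysomal groups.

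**Figure D3:**
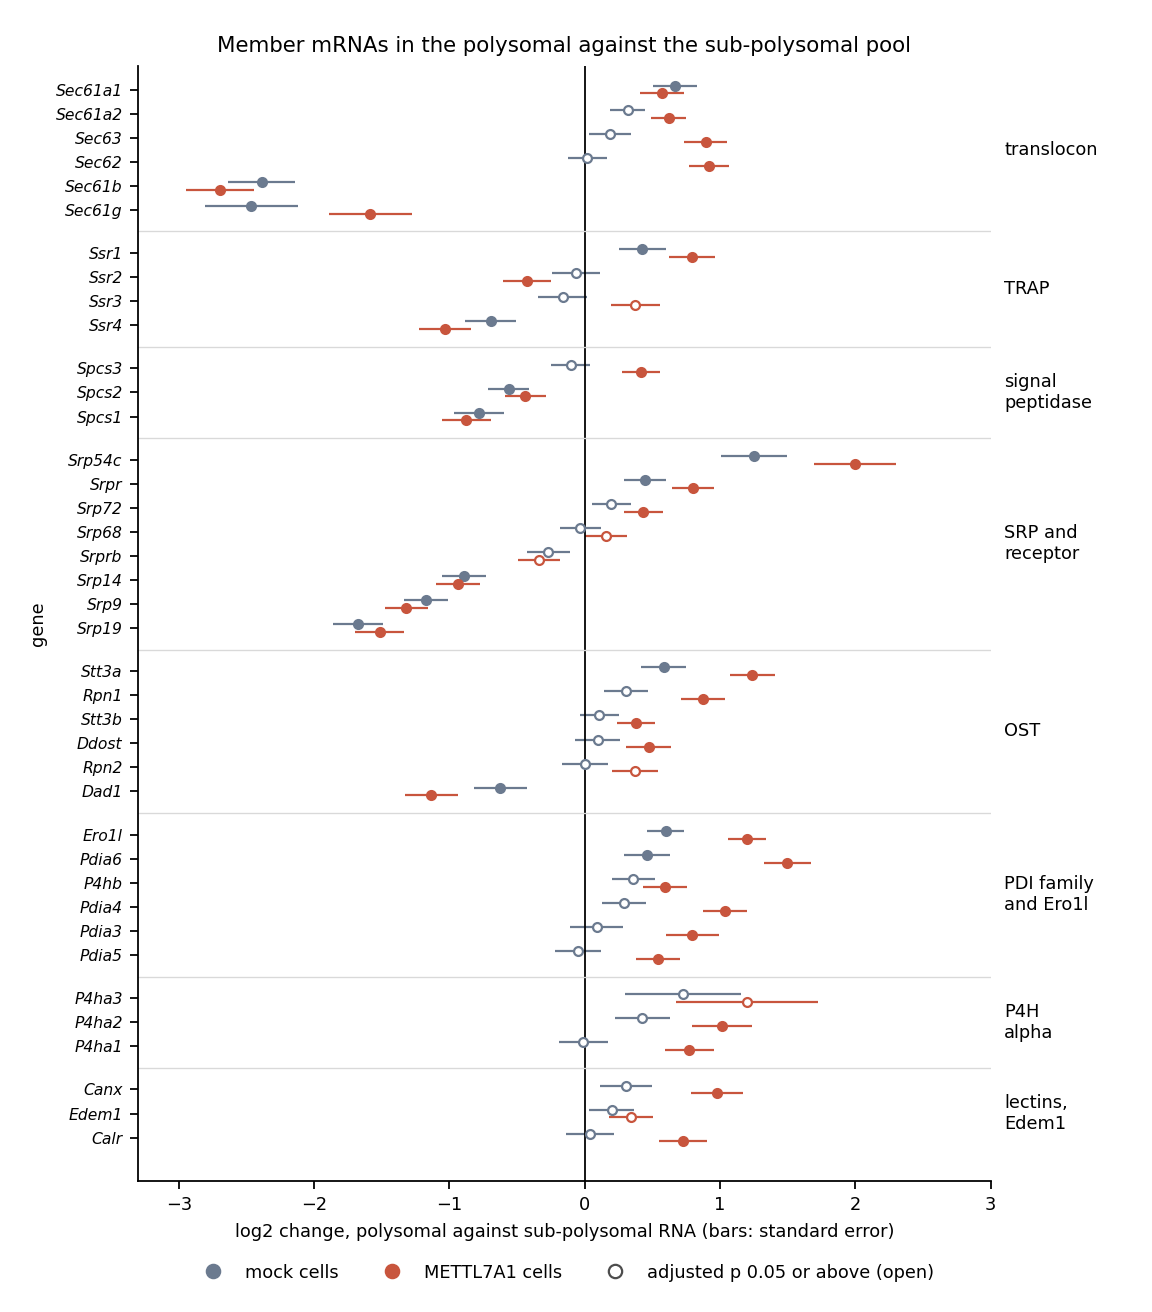
Log2 change of polysomal against sub-polysomal RNA for each of the 39 tested members, grouped by role, in mock and in METTL7A1 cells, with bars of 1 SE and open points where the adjusted p was 0.05 or above. All 6 members for disulfide bonds are above 0 in METTL7A1 cells, and the small subunits Sec61b, Sec61g and Srp19 lie lowest in both lines.

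Members lower in polysomes encoded short proteins. Those lower in mock cells had 68 to 226 residues (median 110), and those higher had 286 to 705 (median 476). Across the 39 members, Spearman's rho between the pool change and protein length was 0.67 in mock and 0.61 in METTL7A1 cells, beside 0.55 and 0.54 over 10845 tested genes with a known length. These are relations across genes, which are not independent replicates. Of 11 members under 200 residues, 8 were lower and 0 higher in mock polysomes, as were 962 and 30 of the 1432 tested genes under 200 residues, with medians of -0.78 and -0.87. In METTL7A1 cells 9 of the 11 were lower and 1 higher, as were 1066 and 40 of the 1432, with medians of -1.03 and -1.10. The 28 members with at least 200 residues had a median of 0.24 beside 0.22 for 9413 genes in mock cells, and 0.78 beside 0.27 in METTL7A1 cells. Between lines in polysomes the 28 had a median of 0.44, and the 11 short members 0.28, beside -0.001 and -0.05 for all genes of those lengths.

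**Figure D4:**
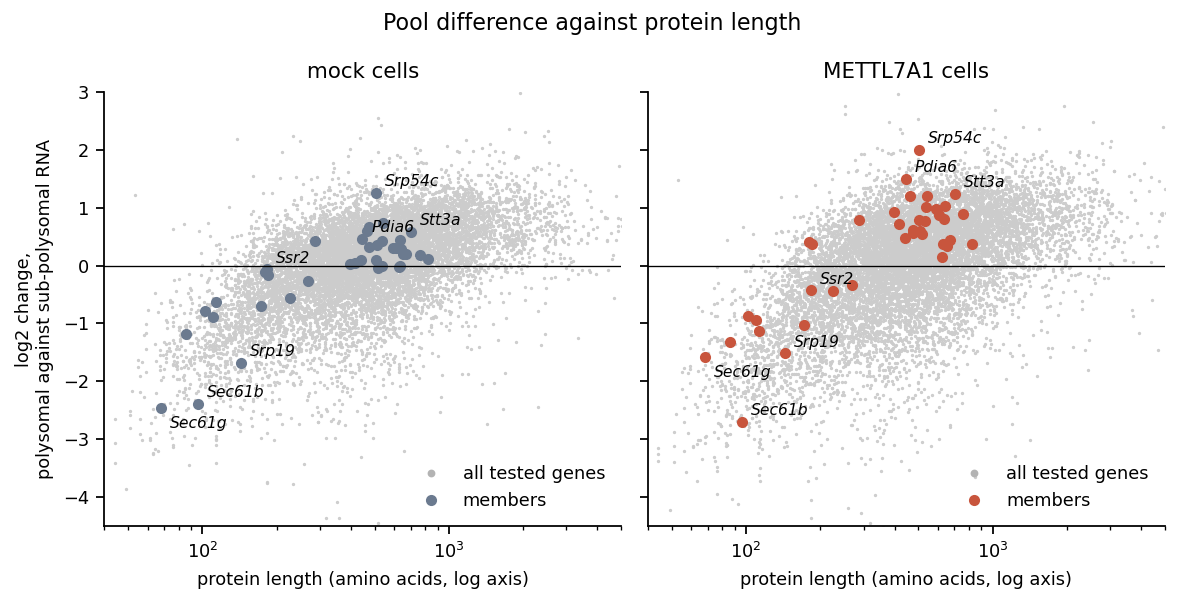
Log2 change of polysomal against sub-polysomal RNA (vertical axis) against protein length in residues (horizontal log axis) in mock and METTL7A1 cells, with members in colour over all tested genes in grey. Sec61g and Sec61b, with 68 and 96 residues, are among the lowest points of the members in both panels.

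Whether the pool change itself differed between lines was tested as the shift, the METTL7A1 pool change minus the mock one. By edgeR, 0 members were higher (0% of all genes) and 0 lower (0% of all genes) at an adjusted p below 0.05, where the smallest member value was 0.114. At an unadjusted p below 0.05, 14 members were higher (6.7% of all genes) and 0 lower (8.93% of all genes). DESeq2, whose own filter left 6536 genes and 35 members, called 5 members higher (2.34% of all genes) and 0 lower (3.26% of all genes). These were Pdia6 (DESeq2 adjusted p = 0.0026), Sec62 (0.00524), Pdia4 (0.0315), Calr (0.045) and Sec63 (0.0471). The member median shift was 0.37, beside -0.01 over all genes, and 30 of 39 members were above 0. By role the median shift was 0.67 for the lectins and Edem1, 0.65 for the isomerases and Ero1l, 0.59 for the prolyl hydroxylase alpha subunits, 0.50 for the translocon, 0.38 for oligosaccharyltransferase, 0.17 for particle and receptor, 0.12 for signal peptidase and 0.01 for TRAP. The 3 largest positive shifts were those of Pdia6 (1.04 ± 0.24 SE, edgeR adjusted p = 0.114), Sec62 (0.90 ± 0.21 SE, edgeR adjusted p = 0.114) and Sec61g (0.88 ± 0.47 SE, edgeR adjusted p = 0.373). The 3 lowest were those of Dad1 (-0.51 ± 0.28 SE, edgeR adjusted p = 0.387), Ssr2 (-0.36 ± 0.25 SE, edgeR adjusted p = 0.503) and Ssr4 (-0.34 ± 0.27 SE, edgeR adjusted p = 0.569). Without mock polysomal A, Pdia6 and Sec62 passed in edgeR (edgeR adjusted p = 0.0348 and 0.037), and with no filter on low counts as well (edgeR adjusted p = 0.0163 and 0.0354). Calls among all genes then also rose from 0 and 0. Without mock polysomal A they were 121 higher and 278 lower of 12224, and with no filter 57 and 102 of 22519. Actb scaling moved the all-gene median to -0.17, and the member median stayed 0.38 above it.

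The whole set took a small, group-dependent part of each library. Shares were of total counts. With library totals alone, the median pool change of all genes was 0.45 log2 in mock and 0.53 log2 in METTL7A1 cells. That of the members was 0.46 and 1.01. The set held 1.23%, 0.942% and 1.02% of counts in mock sub-polysomal libraries and 1.43%, 1.33% and 1.43% in mock polysomal ones. METTL7A1 sub-polysomal libraries gave 1.20%, 1.07% and 0.977%, and METTL7A1 polysomal libraries 2.15%, 1.82% and 1.73%. All METTL7A1 polysomal values were above the 9 others, and the sub-polysomal groups of the lines overlapped. The group means were 1.06% ± 0.148, 1.40% ± 0.0577, 1.08% ± 0.111 and 1.90% ± 0.221 (SD, n = 3). The 95% Wilson interval of a share reached at most 0.016 points to a side and covers counting error only. Calr, P4hb and Pdia3 held 33.9% of the set's counts in METTL7A1 polysomal RNA, beside 25.2%, 28.2% and 26.5% in the other groups in the order above. Without these 3 genes the set held 0.793%, 1.01%, 0.794% and 1.26%. By role, isomerases and Ero1l held 0.539% ± 0.0839 of METTL7A1 polysomal counts against 0.353% ± 0.0310 in mock polysomal ones. Calr, Canx and Edem1 held 0.335% ± 0.0479 against 0.212% ± 0.0168, and the translocon 0.117% ± 0.0133 against 0.101% ± 0.00465.

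**Figure D5:**
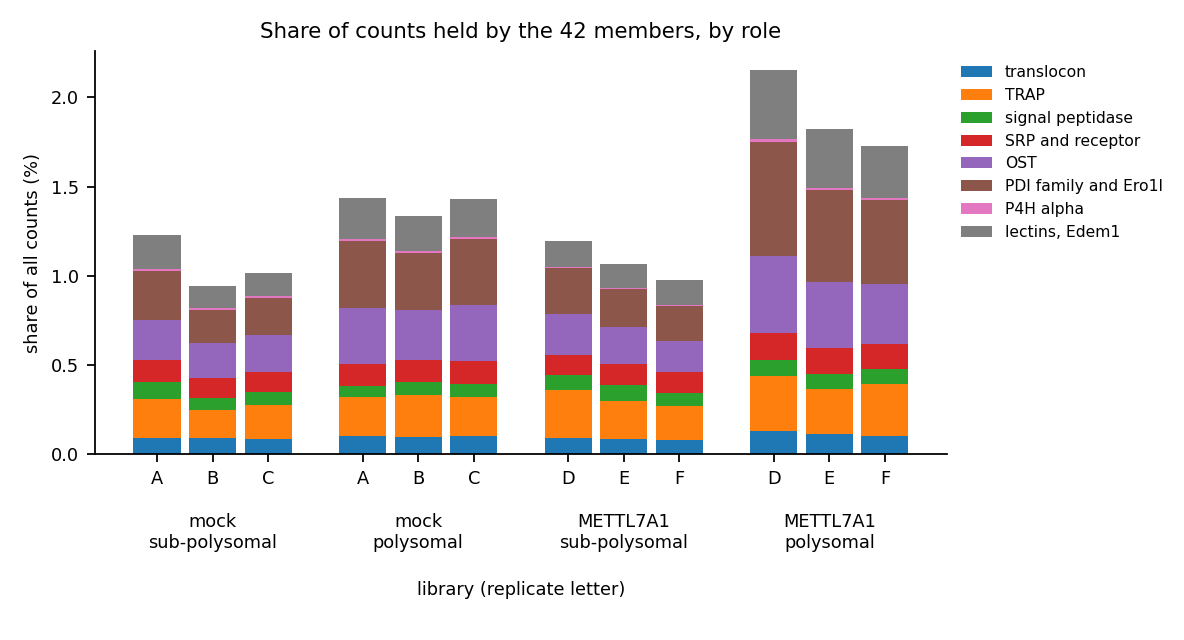
Share of each library's counts held by the 42 members (percent, from 0), with 1 bar per library, stacked by role. The METTL7A1 polysomal libraries lie between 1.73% and 2.15%, above the 9 others.

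Other ER genes were counted in the same comparisons. Of 29 further chaperones and folding enzymes, 28 were tested, and in polysomal RNA 13 (46.4%) were higher and 0 lower in METTL7A1 cells, beside 9.69% and 8.28% of all genes, with a median of 0.55. The largest changes were those of Hsp90b1, the ER-resident Hsp90 (1.45 ± 0.19 SE, edgeR adjusted p = 3.13e-05), and Sdf2l1, a BiP cofactor (1.19 ± 0.15 SE, edgeR adjusted p = 1.93e-05). Ero1lb, the second ER oxidase, and Creld2 followed at 1.13 and 1.02 (edgeR adjusted p = 0.00539 and 0.000226). In sub-polysomal RNA 8 (28.6%) were higher and 2 (7.14%) lower, beside 16.8% and 14.5% of all genes, led by Sdf2l1 (1.69 ± 0.16 SE, edgeR adjusted p = 8.88e-07) and the secreted ER-stress factor Manf (1.07 ± 0.18 SE, edgeR adjusted p = 0.000228). In polysomes of METTL7A1 cells 16 (57.1%) were higher and 3 (10.7%) lower than in light fractions, where all genes gave 30% and 29.3%. Mock cells had 7 (25%) and 3 (10.7%), where all genes gave 23.3% and 23.7%. Hspa5, the main lumenal Hsp70 known as BiP, changed by 1.20 ± 0.18 (SE, edgeR adjusted p = 2.33e-05) between the METTL7A1 pools, and Manf, a short protein, by -1.18 ± 0.18 (SE, edgeR adjusted p = 1.79e-05).

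The unfolded protein response list (12 genes, all tested) went both ways. In polysomal RNA 5 (41.7%) were higher and 2 (16.7%) lower in METTL7A1 cells, beside 9.69% and 8.28% of all genes. Xbp1, the spliced transcription factor of the Ire1 branch, changed by 0.71 ± 0.14 (SE, edgeR adjusted p = 0.00119), and Trib3, a pseudokinase induced by Atf4 and Ddit3, by -1.41 ± 0.17 (SE, edgeR adjusted p = 9.2e-06). In sub-polysomal RNA 5 (41.7%) were higher and 3 (25%) lower, beside 16.8% and 14.5% of all genes, with Xbp1 at 0.81 ± 0.14 (SE, edgeR adjusted p = 0.000295) and Ern1, which encodes the Ire1 sensor, at -0.96 ± 0.22 (SE, edgeR adjusted p = 0.00254). Atf4, whose mRNA has upstream reading frames that hold back its translation, was lower in polysomes, with changes of -1.92 ± 0.23 (SE, edgeR adjusted p = 4.55e-06) in mock and -2.67 ± 0.24 (SE, edgeR adjusted p = 8.36e-08) in METTL7A1 cells. In mock cells 2 of the 12 (16.7%) had more RNA in polysomes by the test and 3 (25%) had less, near the 23.3% and 23.7% of all genes. METTL7A1 cells had 6 (50%) and 4 (33.3%), where all genes gave 30% and 29.3%. Of 15 genes of ER-associated degradation, 14 were tested: 4 (28.6%) were higher and 0 lower in METTL7A1 polysomes than in mock ones, and 6 (42.9%) and 2 (14.3%) in sub-polysomal RNA, against the same shares of all genes as above. Syvn1, the ubiquitin ligase Hrd1, changed by 0.71 ± 0.15 (SE, edgeR adjusted p = 0.0031) and 0.87 ± 0.17 (SE, edgeR adjusted p = 0.000721) in these. Vcp, the extracting ATPase, was higher in polysomes by 1.56 ± 0.18 (SE, edgeR adjusted p = 2.27e-06) in mock and 1.68 ± 0.18 (SE, edgeR adjusted p = 3.63e-07) in METTL7A1 cells. By pool, this list had 7 higher and 1 lower in mock polysomes (50% and 7.14%), beside 23.3% and 23.7% of all genes. Its METTL7A1 counts were 7 and 3 (50% and 21.4%), beside 30% and 29.3% of all genes.

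Among 26 partners of the translocon and of tail-anchored protein insertion, 24 were tested, and 5 (20.8%) were higher and 0 lower in METTL7A1 polysomes, beside 9.69% and 8.28% of all genes. Sec11c, a catalytic subunit of signal peptidase, changed by 0.94 ± 0.17 (SE, edgeR adjusted p = 0.000548), and Emc7, a subunit of the ER membrane complex, by 0.81 ± 0.16 (SE, edgeR adjusted p = 0.00134). Sub-polysomal RNA had 11 (45.8%) higher and 1 (4.17%) lower, beside 16.8% and 14.5% of all genes, Emc4 among the higher (0.77 ± 0.17 SE, edgeR adjusted p = 0.00205). Emc4 was not the largest, as changes in this list reached 1.48. Of the calls followed there, that of Emc9 ended without any of 4 libraries (edgeR adjusted p from 0.0513 to 0.0611). The Emc6 call ended without any of 6 (edgeR adjusted p from 0.0506 to 0.144). By pool, 2 (8.33%) had more RNA in mock polysomes by the test and 7 (29.2%) had less, beside 23.3% and 23.7% of all genes. METTL7A1 cells had 5 (20.8%) and 12 (50%), beside 30% and 29.3%. Emc6, another short subunit, was lowest, at -2.19 ± 0.24 (SE, edgeR adjusted p = 1.77e-06) and -2.60 ± 0.25 (SE, edgeR adjusted p = 1.29e-07). Of 13 other oligosaccharyltransferase and glycan-trimming genes, 11 were tested, and 1 (9.09%) was higher and 0 lower between lines in polysomes, near the 9.69% of all genes. That gene was Magt1, a thioredoxin-like subunit (0.52 ± 0.16 SE, edgeR adjusted p = 0.0263), whose call ended without mock polysomal B or METTL7A1 polysomal D (edgeR adjusted p from 0.0843 to 0.179) and with library totals (edgeR adjusted p = 0.0852). In sub-polysomal RNA none of the 11 passed in edgeR, beside 16.8% and 14.5% of all genes. At an unadjusted p below 0.05, 4 were higher and 0 lower, beside 2698 and 2468 of the 12224 tested genes. The mini-subunits Tmem258 (-2.24 ± 0.26 SE, edgeR adjusted p = 2.36e-06) and Ost4 (-2.13 ± 0.29 SE, edgeR adjusted p = 1.12e-05) were the lowest of this list in mock polysomes. There 2 (18.2%) were higher and 4 (36.4%) lower, beside 23.3% and 23.7% of all genes. In METTL7A1 cells 4 and 4 were (36.4% each), near the 30% and 29.3% of all genes.

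RefSeq promoters were searched for the ER stress response element, written as CCAAT, 9 bases of any kind and CCACG. The search took both strands of windows of 300 bases, 50 of them after the RefSeq start. A promoter was at hand for 36 of the 42 members, and 3 of them held the element (8.33%), against 37 of 27025 genes (0.137%). They were Calr, Canx and Pdia6. In the other lists it lay in Creld2, Dnajc3, Hsp90b1 and Hspa5 among 22 chaperones and folding enzymes (18.2%) and in Derl3 and Syvn1 among 12 degradation genes (16.7%). It lay in 0 of 17 translocon partners, 0 of 10 glycan genes and 0 of 11 unfolded protein response genes. A match describes these letters only, and whether any factor binds there was not tested. The stretches before the GENCODE gene start of the 3 members are shown on the gene's strand in GRCm38.p6, with the element in capitals. They are chr8:84846935-84847181 (minus strand, element on the opposite strand from 159 to 141 bases before the gene start), chr11:50325674-50325923 (minus strand, 145 to 127 bases before) and chr12:17266339-17266544 (plus strand, 54 to 36 bases before).
Calr: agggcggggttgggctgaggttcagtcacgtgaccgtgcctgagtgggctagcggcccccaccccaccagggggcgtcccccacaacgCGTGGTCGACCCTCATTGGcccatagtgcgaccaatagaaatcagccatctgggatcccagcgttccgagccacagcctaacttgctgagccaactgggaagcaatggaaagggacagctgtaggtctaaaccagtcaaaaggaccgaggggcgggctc
Canx: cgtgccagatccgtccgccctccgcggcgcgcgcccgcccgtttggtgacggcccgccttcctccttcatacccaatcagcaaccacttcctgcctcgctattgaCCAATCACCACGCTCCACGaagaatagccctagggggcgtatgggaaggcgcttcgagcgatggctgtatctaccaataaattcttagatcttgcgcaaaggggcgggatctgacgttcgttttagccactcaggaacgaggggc
Pdia6: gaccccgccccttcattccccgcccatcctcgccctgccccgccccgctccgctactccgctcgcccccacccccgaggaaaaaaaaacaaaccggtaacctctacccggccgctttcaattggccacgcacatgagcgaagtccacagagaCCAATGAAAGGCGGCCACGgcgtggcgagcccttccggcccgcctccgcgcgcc

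These 3 genes did not behave alike in the tests. In polysomal RNA Calr was higher in METTL7A1 cells, while Canx and Pdia6 missed the threshold (edgeR adjusted p = 0.0529 and 0.057), and all 3 had METTL7A1 libraries above mock libraries there. In sub-polysomal RNA Pdia6 was lower and the lines overlapped for Calr and Canx. All 3 were higher in polysomal than in sub-polysomal RNA of METTL7A1 cells, by 0.72 ± 0.18 (SE, edgeR adjusted p = 0.00189), 0.98 ± 0.19 (SE, edgeR adjusted p = 0.000271) and 1.497 ± 0.17 (SE, edgeR adjusted p = 1.03e-06). Actb scaling ended that call for Calr (edgeR adjusted p = 0.069).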

How the data were processed

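RNA-Seq libraries of sub-polysomal and polysomal RNA from mock and METTL7A1 4T1 cells (12 libraries, 4 groups of 3) were taken as gene counts. The counts were made by the authors with bcl2fastq 2.20.0.422, STAR 2.5.3a, featureCounts and R 3.5.1 on GRCm38 (mm10) and deposited as 1 table; strand and multimapping settings were not stated. Totals ran from 1817520 to 6966156 counts. Genes with at least 1 CPM in 3 libraries were fitted in edgeR 4.0.16 (R 4.3.3, limma 3.58.1) with TMM factors, quasi-likelihood tests and Benjamini-Hochberg adjustment over all tested genes, called at 0.05. The shift is the interaction of line and pool. DESeq2 1.42.0, other scalings and filters, a replicate block and leaving out each library were alternatives. Members follow a symbol rule; members and lists were chosen with earlier results of these data known. Every member called in mock pools or between lines is named, and those called only in METTL7A1 pools are not listed in full. For the shift, 3 per direction are named by size of change, along with the members that DESeq2 called. Genes of other lists (translocon partners, other glycan genes, other chaperones, unfolded protein response, ER-associated degradation) were counted; those named, at most 4 per list and comparison, were to be the largest called changes, and several were instead chosen after their values were seen. Levels per kb used exon length. Sequences are from GRCm38. The result of 1 cell marker is not reported here.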

Additional observations from a re-analysis of the deposited data

Results flagged for a closer look

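Pdia6 and Sec62 stood out because their METTL7A1 libraries moved opposite ways in the 2 pools. For each gene all 3 METTL7A1 libraries lay above all 3 mock libraries in polysomal RNA and below all 3 in sub-polysomal RNA. Of all tested genes, 18.9% lay fully above in polysomal RNA and 20.5% fully below in sub-polysomal RNA. The share of all genes that did both was not counted. In edgeR neither polysomal change passed (adjusted p = 0.057 for Pdia6 and 0.183 for Sec62). Both sub-polysomal changes passed, and with Actb scaling neither did (edgeR adjusted p = 0.279 and 0.136). The Pdia6 one also ended without mock sub-polysomal A or METTL7A1 sub-polysomal E or F (edgeR adjusted p from 0.0529 to 0.0867). The difference between the pools, on the log2 scale, was 1.04 for Pdia6 and 0.90 for Sec62. The edgeR test of that difference gave an adjusted p of 0.114 for Pdia6 and 0.114 for Sec62, so neither passed. Both passed by DESeq2 (adjusted p = 0.0026 and 0.00524) and by edgeR with no filter on low counts (adjusted p = 0.0163 and 0.0354), and by edgeR without mock polysomal A (adjusted p = 0.0348 and 0.037). All genes then gave, in that order, 153 higher and 213 lower of 6536, 57 and 102 of 22519, and 121 and 278 of 12224. These tests used the same values that flagged the 2 genes. Causes were not tested.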

How the results depend on the processing

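Counts are of tested members, given as higher and lower: 39, except 36 with a minimum of 10 counts in every library, 41 with no filter on low counts and 35 for the shift by DESeq2. In mock pools (7 and 9), library totals gave 21 and 5, factors within each pool 24 and 5, Actb scaling 3 higher, a fit of only the groups compared 4 higher, and the stricter limits 0 and 3. The median of 0.09 became 0.46 with library totals and 0.51 with factors within each pool. It turned to -0.02 with Actb scaling. With a minimum of 10 counts in every library it was 0.03, with DESeq2 and with RLE factors 0.05, and with no filter on low counts 0.15. In METTL7A1 pools (23 and 10), Actb scaling gave 13 higher and the stricter limits 1 and 3, and the median of 0.54 became 1.01 with library totals, 0.98 with factors within each pool and 0.29 with Actb scaling. The rho with protein length there, 0.61, became 0.57 with no filter on low counts. Ssr2 turned in METTL7A1 pools, at 0.039 with library totals and 0.012 with factors within each pool, and Spcs2 at 0.029 with library totals.

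Between lines in polysomal RNA (15 and 1), library totals gave 6 higher and Actb scaling 0 lower. A minimum of 10 counts in every library gave 0 lower (Srp54c was then not tested). The stricter limits gave 0 and 0, beside 120 and 140 of 12224 genes. In sub-polysomal RNA (6 and 6), library totals gave 2 higher and Actb scaling 10 and 3. There the stricter limits gave 0 and 0, beside 183 and 154 of 12224 genes. The median of 0.06 became 0.33 with Actb scaling and turned to -0.09 with library totals. It was 0.04 with factors within each pool and in a fit of only the groups compared. For the shift (0 and 0), DESeq2 gave 5 higher and no filter on low counts 2 higher. All genes then gave 153 higher and 213 lower of 6536, and 57 and 102 of 22519. Other causes were not tested.

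Leaving out each library in turn gave 4 to 8 higher and 8 to 9 lower in mock pools, the 4 without mock sub-polysomal B. METTL7A1 pools gave 20 to 26 and 8 to 11. Polysomal RNA gave 5 to 17 higher (5 without mock polysomal B and without METTL7A1 polysomal D, 6 without METTL7A1 polysomal E) and 0 to 1 lower (0 without mock polysomal A and METTL7A1 polysomal D and E). Sub-polysomal RNA gave 2 to 7 higher (2 without METTL7A1 sub-polysomal D, 3 without E) and 5 to 6 lower. The shift gave 0 to 2 higher (2 without mock polysomal A, where all genes gave 121 higher and 278 lower) and 0 lower. The member median ran from 0.01 (without mock polysomal C) to 0.12 in mock pools, from 0.45 to 0.65 in METTL7A1 pools, from 0.35 to 0.45 in polysomal RNA, from 0.03 (without METTL7A1 sub-polysomal E) to 0.11 (without F) in sub-polysomal RNA, and from 0.27 to 0.50 for the shift.

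With a replicate block, which assumes pairing of pools by letter, the counts were 8 and 9 in mock pools, 24 and 10 in METTL7A1 pools and 0 and 0 for the shift; correlations of paired deviations ran from -0.292 (C) to 0.107 (A).

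The named calls were followed through every setting in which the gene was tested, other than the stricter limits. Of these, 8 of 16 held in mock pools and 20 of 33 in METTL7A1 pools. Between lines, 5 of 16 held in polysomal and 5 of 12 in sub-polysomal RNA. Sec61g and Srp54c are among those held in both pool comparisons, and Srp54c also in sub-polysomal RNA. Neither gene was tested with a minimum count in every library. A single count equalled 0.564 CPM in the shallowest library, which limits genes near 1 CPM such as P4ha3.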
